A study of Homo sapiens with 10 samples.

Results

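The genes described are the subunits, activators, inhibitor and assembly factors of the proteasome. They were taken by symbol: every probe set whose only gene symbol in the platform annotation was PSM followed by A, B, C, D, E or F and a number. The rule gave 34 genes of the 7713 genes with a single-symbol probe set on the array, with 1 probe set each. PSMB8, PSMB9, PSMB10 and PSME1 are the interferon-inducible members, and the other 30 are here called constitutive. PSME2, the partner of PSME1, did not enter because its probe set carries a second symbol, MIR7703, a microRNA gene that lies inside the PSME2 locus. That probe set is given separately below. PSMB6 and PSMA6 are among the subunits not analysed here.

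Total RNA of the monocytic cell line U937 was measured on 10 one-colour arrays. All cultures, the control included, had been differentiated with interferon gamma. The groups were CD64 cross-linked for 6 h, CD64 for 2 h, CD32 for 6 h, CD32 for 2 h, and a control with no cross-linking listed, with 2 arrays in each group. CD64 is the high-affinity and CD32 the low-affinity Fc gamma receptor, which bind the constant part of IgG antibodies. The labels give the control no time, and no group shows the subunits without interferon. The duplicate arrays were not said to be separate cultures, and p-values therefore measure the spread between these arrays, which may be technical.

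The proteasome degrades proteins tagged with ubiquitin. Its core particle is a barrel of outer alpha rings and inner beta rings, and PSMB5, PSMB6 and PSMB7 carry the catalytic sites. The 19S regulatory particle caps the barrel, with PSMC ATPases that unfold substrates and PSMD subunits that bind and de-ubiquitinate them. Interferon gamma induces PSMB8, PSMB9 and PSMB10, which replace PSMB5, PSMB6 and PSMB7 in newly built particles, and PSME1 and PSME2, which form an alternative cap. The resulting immunoproteasome supplies many of the peptides shown on MHC class I.

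Promoter sequences are shown for the 4 inducible members, whose regulation by interferon the comparison turns on, and for PSMD12, the constitutive member with the lowest p over all groups, chosen for that. Each window runs from 250 bases before to 50 after a start listed for the gene in RefSeq (GRCh38.p14). It is printed 5′ to 3′ on the gene's strand and covers 300 bases. For PSMB8 the window shown lies at a start inside the locus, not at the outer end of the gene. Capitals mark matches, on either strand, to 4 motifs: the core of the interferon-stimulated response element (GAAA, any 2 bases, GAAA), the gamma-activated sequence (TTCNNNGAA), the core of the antioxidant response element (TGACNNNGC) and an ETS core (CCGGAAG). The motifs were searched independently of one another. The windows are PSMB8 at chr6:32843998-32844297 (minus strand), PSMB9 at chr6:32853942-32854241 (plus), PSMB10 at chr16:67936801-67937100 (minus), PSME1 at chr14:24135944-24136243 (plus) and PSMD12 at chr17:67366528-67366827 (minus).
PSMB8: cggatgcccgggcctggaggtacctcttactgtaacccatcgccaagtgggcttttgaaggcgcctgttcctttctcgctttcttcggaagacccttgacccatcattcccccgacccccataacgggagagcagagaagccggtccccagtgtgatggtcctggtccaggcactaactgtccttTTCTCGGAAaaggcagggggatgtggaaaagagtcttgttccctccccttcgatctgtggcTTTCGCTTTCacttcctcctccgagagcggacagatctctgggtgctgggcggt
PSMB9: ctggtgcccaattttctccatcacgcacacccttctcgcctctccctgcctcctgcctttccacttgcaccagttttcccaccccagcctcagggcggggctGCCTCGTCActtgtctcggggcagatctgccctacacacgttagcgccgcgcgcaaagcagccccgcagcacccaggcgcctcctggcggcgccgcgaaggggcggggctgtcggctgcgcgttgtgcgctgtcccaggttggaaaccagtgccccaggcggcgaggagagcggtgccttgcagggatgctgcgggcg
PSMB10: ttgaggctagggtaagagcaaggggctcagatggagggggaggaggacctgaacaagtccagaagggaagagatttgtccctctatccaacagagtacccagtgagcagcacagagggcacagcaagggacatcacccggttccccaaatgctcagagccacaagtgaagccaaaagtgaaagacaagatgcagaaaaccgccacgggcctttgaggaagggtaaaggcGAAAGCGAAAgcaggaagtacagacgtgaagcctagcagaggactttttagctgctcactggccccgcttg
PSME1: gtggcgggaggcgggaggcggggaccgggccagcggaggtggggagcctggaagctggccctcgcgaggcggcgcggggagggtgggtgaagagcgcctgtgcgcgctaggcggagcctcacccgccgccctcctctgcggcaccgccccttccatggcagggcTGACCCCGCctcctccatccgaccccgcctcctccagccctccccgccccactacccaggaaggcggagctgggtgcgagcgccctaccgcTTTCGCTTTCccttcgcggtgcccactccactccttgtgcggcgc
PSMD12: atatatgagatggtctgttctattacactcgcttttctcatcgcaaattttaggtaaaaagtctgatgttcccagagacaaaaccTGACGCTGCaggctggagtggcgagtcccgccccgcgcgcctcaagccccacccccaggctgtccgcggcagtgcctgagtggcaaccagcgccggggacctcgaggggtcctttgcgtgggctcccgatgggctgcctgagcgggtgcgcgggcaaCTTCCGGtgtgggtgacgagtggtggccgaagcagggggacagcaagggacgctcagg

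The interferon-stimulated response element core was found in the windows of PSMB8, PSMB10 and PSME1, 3 of 4 inducible members, and in those of PSMA4 and PSMB4 among the constitutive members. Its first base lay 4 bases before the start in PSMB8, 21 before in PSMB10 and 5 after in PSME1. Of all 27305 genes with a promoter window 4.38% hold it in 1 or more of their windows. PSMB8 has another listed start, at the outer end of its locus (chr6:32844679). The window of that start (chr6:32844630-32844929) holds none of the 4 motifs. The window printed above, at the start inside the locus, also holds a gamma-activated sequence that begins 65 bases before that inner start. That sequence was found in 7 of the 30 matched members, PSMB8 the only inducible one, against 9.38% of genes. PSMB9 has no interferon-stimulated core in its own window. The window of TAP1, which runs the other way from a neighbouring start and overlaps that of PSMB9 by 13 bases, holds 2 overlapping copies. The PSME2 window holds 1 copy. The antioxidant response element core was found in 10 of the 30 matched members, PSMD12, PSMB9 and PSME1 among them, against 16.1% of genes. The ETS core was found in 8, none of them inducible, against 12.2%. The PSMA3 window holds none of the 4. A match is a run of letters and shows no binding.

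The deposited signals were scaled by the submitters to a common trimmed mean, and the array medians lay between 101 and 153. All 34 members were above the floor of 37.5, under which signals were set to that value, on all 10 arrays. Of 11 monocyte and macrophage markers on the array 9 were above the floor on every array. Of the T cell markers 1 of 7 was, of the B cell markers 1 of 3, of the erythroid and platelet markers 1 of 3, and of the epithelial and fibroblast markers 2 of 8. Measures of labelling went with the groups: the 18 spike-in probe sets averaged 9.32 on the log2 scale in CD64 6 h, 10.87 in CD64 2 h, 12.36 in CD32 6 h and 11.25 in CD32 2 h, against 10.64 in control. Actin signal at the 3′ end was 1.08 to 1.16 times that at the 5′ end in CD64 6 h, 1.75 to 1.86 in CD64 2 h, 1.97 to 2.01 in CD32 6 h and 1.44 to 1.67 in CD32 2 h, against 1.29 to 1.32 in control. The same ratio for GAPDH differed less. It averaged 0.88 in CD64 6 h, 0.95 in CD64 2 h, 1.17 in CD32 6 h and 0.88 in CD32 2 h, against 0.87 in control. Labelling and cross-linking cannot be told apart in this design. Of the 11 monocyte and macrophage markers, 3 were called higher and 2 lower in CD64 6 h, 1 and 3 in CD64 2 h, 6 and 0 in CD32 6 h and 1 and 0 in CD32 2 h. In the same groups 20.6%, 15.9%, 20% and 15.5% of all probe sets were called in either direction. Of probe sets with a mean signal of at least 400, 46.1%, 35.7%, 41.7% and 34.4% were called. For 17 of the 34 members the probe set is of the kind that may match several transcripts.

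Proteasome transcripts did not move as a block after Fc receptor cross-linking. Testing all 5 groups together with limma's F statistic, 19 of 34 members were called at an adjusted p under 0.05, or 55.9%, against 34.5% of the 7708 probe sets tested. The share depends on brightness: among probe sets with a mean signal of at least 400, which 32 of the 34 members reach, 75.2% were called. Of the inducible members 1 of 4 was called, PSMB8, and of the constitutive members 18 of 30.

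Each group was next compared with control. CD64 6 h had 7 members higher and 0 lower, 20.6% of members, against 20.6% of all probe sets (10.7% higher and 9.94% lower) and 46.1% of the bright ones. CD64 2 h had 6 higher and 4 lower, 29.4% of members, against 15.9% of all probe sets (7.64% higher and 8.24% lower) and 35.7% of the bright ones. CD32 6 h had 5 higher and 6 lower, 32.4% of members, against 20% of all probe sets (9.63% higher and 10.3% lower) and 41.7% of the bright ones. CD32 2 h had 2 higher and 3 lower, 14.7% of members, against 15.5% of all probe sets (8.86% higher and 6.6% lower) and 34.4% of the bright ones. In none of the 4 comparisons was the members' share above that of the bright probe sets. With 2 arrays a group, pairs that do not overlap with the control pair are common, at 53.1% of all probe sets in CD64 6 h, 51.7% in CD64 2 h, 54% in CD32 6 h and 50.2% in CD32 2 h. The median log2 change over all members was 0.07 in CD64 6 h, 0.05 in CD64 2 h, −0.06 in CD32 6 h and 0.06 in CD32 2 h. The median of all probe sets was −0.04, −0.13, −0.08 and −0.03 in the same groups. These 4 comparisons share the 2 control arrays. Under quantile normalization the CD64 6 h calls were 5 higher and 1 lower, and under cyclic loess 9 higher and 1 lower. The share of all probe sets called was not computed under either normalization, so these counts show no excess among the members.

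**Figure D1:**
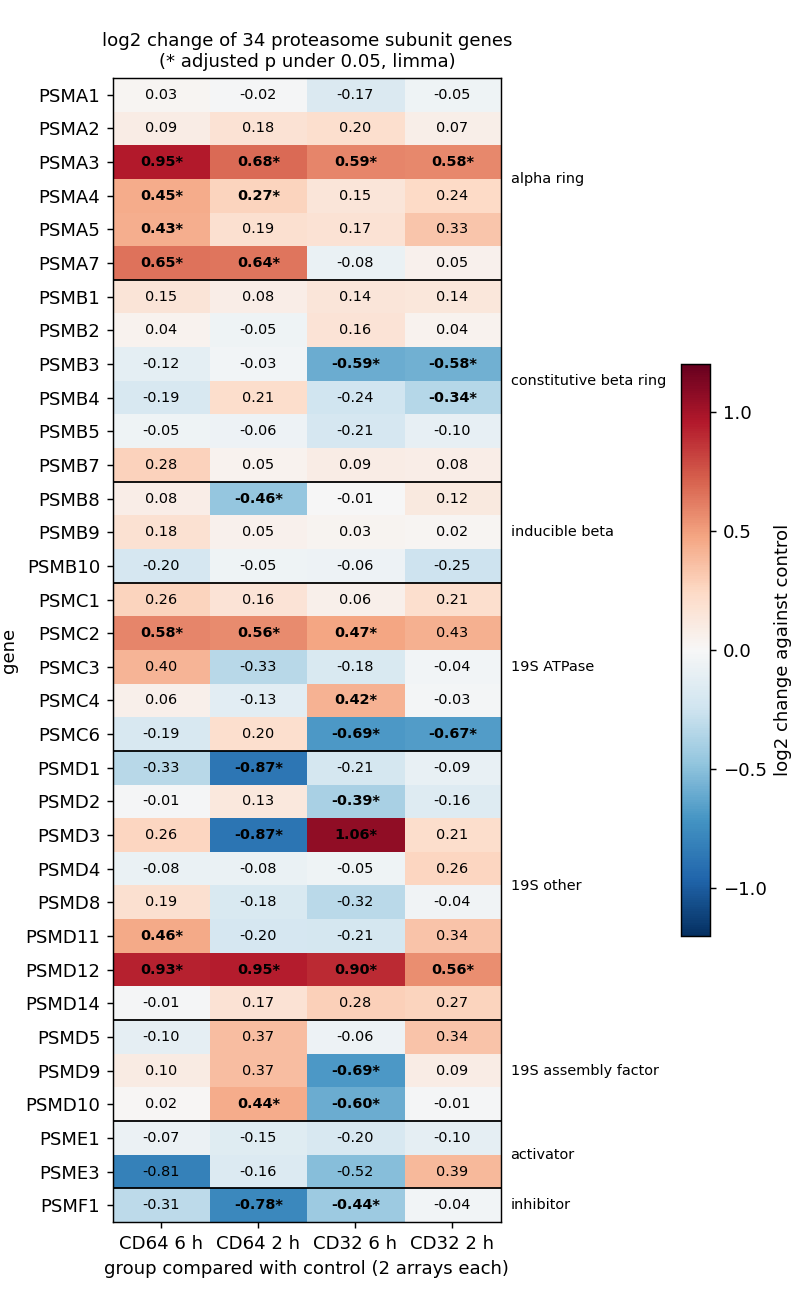
Log2 change of each of the 34 members (rows, by role) in each cross-linked group against control (columns), with colour from −1.2 to 1.2; an asterisk marks an adjusted p under 0.05 in limma. PSMA3 and PSMD12 are red and called in all 4 columns, and the inducible beta rows hold 1 called cell, PSMB8 in CD64 2 h at −0.46.

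Of the 4 inducible members, 1 was called against the interferon-treated control, PSMB8 after 2 h of CD64 cross-linking, where it was lower. PSMB8, the inducible counterpart of PSMB5, had signals of 4775 and 4684 in CD64 6 h, 3505 and 2997 in CD64 2 h, 4457 and 4436 in CD32 6 h and 4800 and 4901 in CD32 2 h, against 4376 and 4562 in control. Both CD64 2 h arrays lay below the other 8 arrays, and the CD64 6 h and CD32 2 h arrays lay above both controls. PSMB8 was 1.38-fold lower in CD64 2 h than in control (log2 −0.46 ± 0.09 SE, adjusted p = 0.00594). That call was lost without replicate 2 of CD64 2 h (log2 −0.35, adjusted p = 0.0511). It was also lost in a fit without limma's variance trend (adjusted p = 0.0730) and with only the groups compared (0.137). In the other groups the log2 change of PSMB8 was 0.08 in CD64 6 h, −0.01 in CD32 6 h and 0.12 in CD32 2 h.

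PSMB9, the inducible counterpart of PSMB6, had signals of 4146 and 4703 in CD64 6 h, 3416 and 4777 in CD64 2 h, 4213 and 3749 in CD32 6 h and 3920 and 3993 in CD32 2 h, against 3998 and 3787 in control. The CD64 6 h arrays were both above the controls, and the CD64 2 h arrays spanned every other array. Its log2 changes were 0.18, 0.05, 0.03 and 0.02 in that order of groups, with adjusted p between 0.458 and 0.959. The 95% intervals of the log2 change reached 0.49 upward, in CD64 6 h, and −0.29 downward, in CD32 2 h. PSMB10, the inducible counterpart of PSMB7, had 955 and 1056 in CD64 6 h, 908 and 1366 in CD64 2 h, 1112 and 1109 in CD32 6 h and 876 and 1079 in CD32 2 h, against 1171 and 1140 in control. All cross-linked arrays but 1, replicate 2 of CD64 2 h, lay below both controls. The log2 changes were −0.20, −0.05, −0.06 and −0.25, none of them called (adjusted p 0.421 to 0.906), and the lowest interval bound was −0.63, in CD32 2 h.

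PSME1, the alpha subunit of the interferon-inducible cap, had signals of 3328 and 3832 in CD64 6 h, 3263 and 3506 in CD64 2 h, 3373 and 3163 in CD32 6 h and 3296 and 3685 in CD32 2 h, against 3752 and 3734 in control. All but 1 of the cross-linked arrays lay below both controls, the exception being replicate 2 of CD64 6 h. The log2 changes lay between −0.20 and −0.07 and were not called (adjusted p 0.204 to 0.740). A decrease of the size seen for PSMB8 lay within the 95% interval of PSMB10 in CD64 6 h (−0.58 to 0.18) and CD32 2 h (−0.63 to 0.13), so equal levels are not shown.

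The probe set shared by PSME2 and MIR7703 was called higher in both CD32 groups. Its signals were 5594 and 5975 in CD64 6 h, 4352 and 4431 in CD64 2 h, 7427 and 6078 in CD32 6 h and 7048 and 5824 in CD32 2 h, against 4650 and 4652 in control. The CD64 6 h and all CD32 arrays were above both controls, and both CD64 2 h arrays were below them. Its log2 change was called in CD32 6 h (0.53 ± 0.12 SE, adjusted p = 0.00843) and in CD32 2 h (0.46, adjusted p = 0.0224), and not called in CD64 6 h (0.31, adjusted p = 0.0886) or CD64 2 h (−0.08, adjusted p = 0.721). The CD32 6 h call was lost without replicate 1 of that group (adjusted p = 0.0838). The CD32 2 h call was lost without replicate 1 of that group (adjusted p = 0.182) and without control replicate 1 or 2 (adjusted p = 0.0879 each). Which of the annotated genes the signal comes from was not tested.

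**Figure D2:**
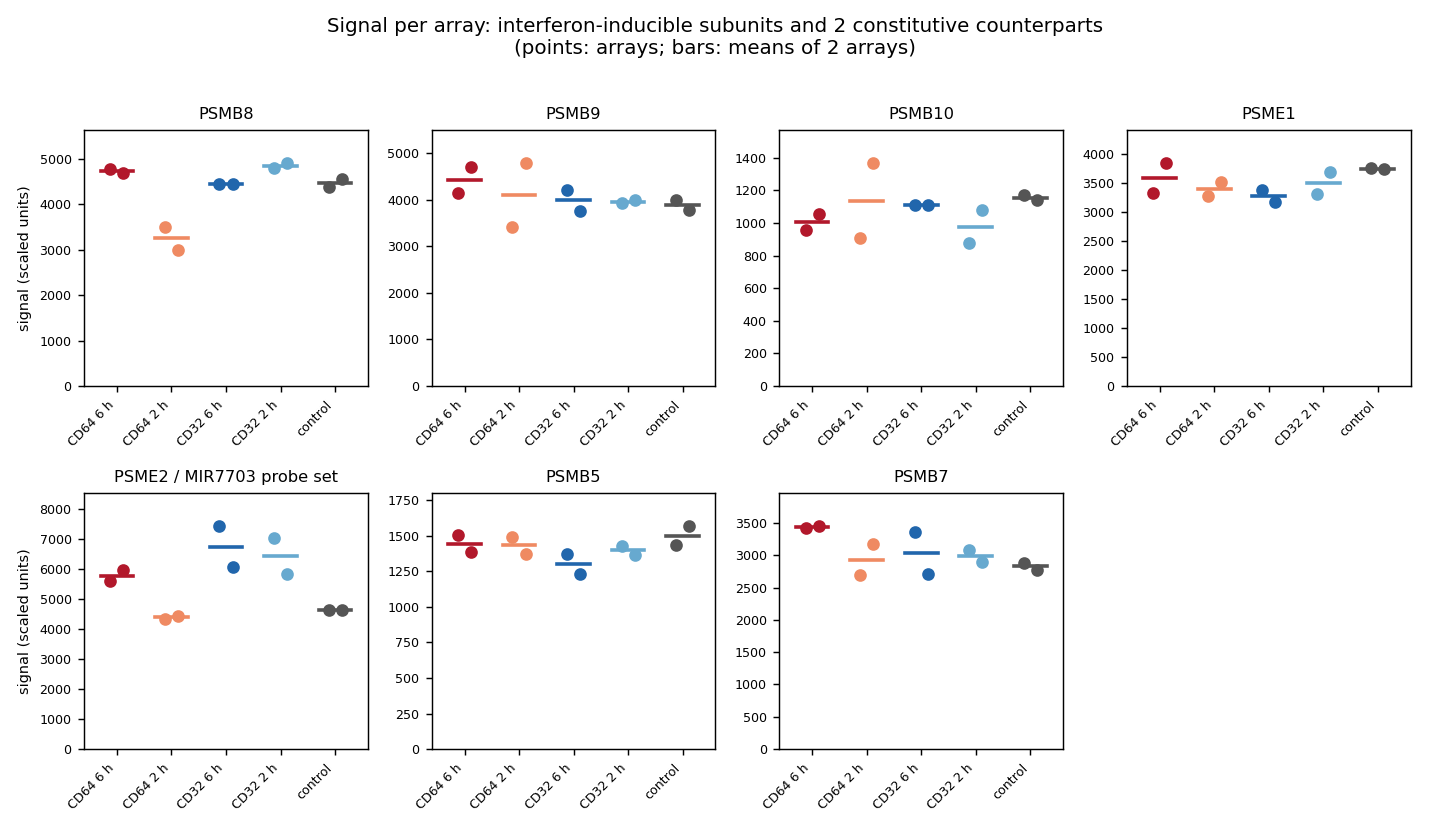
Signal per array, in scaled units on axes that start at 0, for the 4 inducible members, the probe set shared by PSME2 and MIR7703, and the constitutive counterparts PSMB5 and PSMB7; points are arrays and bars are means of 2. PSMB8 shows 1 low pair, CD64 2 h at 3505 and 2997, and PSMB9 overlaps control in 3 of 4 groups.

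The constitutive counterparts on the array, PSMB5 and PSMB7, were not called in any of the 9 comparisons. PSMB5, which carries the chymotrypsin-like activity, had signals of 1506 and 1387 in CD64 6 h, 1495 and 1376 in CD64 2 h, 1371 and 1232 in CD32 6 h and 1430 and 1364 in CD32 2 h, against 1433 and 1567 in control. PSMB7, which carries the trypsin-like activity, had 3418 and 3448 in CD64 6 h, 2688 and 3174 in CD64 2 h, 3367 and 2703 in CD32 6 h and 3078 and 2895 in CD32 2 h, against 2882 and 2776 in control. The adjusted p over all groups was 0.545 for PSMB5 and 0.371 for PSMB7. Set against PSMB5 on the same array, PSMB8 differed from its control mean by 0.09 and 0.18 log2 units in CD64 6 h, −0.35 and −0.45 in CD64 2 h, 0.12 and 0.27 in CD32 6 h and 0.17 and 0.27 in CD32 2 h, against 0.03 and −0.03 in control. Only the CD64 2 h pair was below both controls in this ratio, and the pairs of the other cross-linked groups were above both. PSMB10 set against PSMB7 was −0.55 and −0.42 in CD64 6 h, −0.27 and 0.08 in CD64 2 h, −0.31 and 0.01 in CD32 6 h and −0.52 and −0.13 in CD32 2 h, against −0.01 and 0.01 in control. In that ratio both pairs of CD64 6 h and CD32 2 h were below the controls, and the other 2 groups overlapped them.

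Set side by side, the median log2 change of the 4 inducible members was 0.01 in CD64 6 h, −0.10 in CD64 2 h, −0.03 in CD32 6 h and −0.04 in CD32 2 h. That of the 30 constitutive members was 0.07, 0.10, −0.07 and 0.08. The difference of these medians, inducible minus constitutive, was −0.06 in CD64 6 h, −0.20 in CD64 2 h, 0.04 in CD32 6 h and −0.12 in CD32 2 h, against a pooled SD within pairs of 0.09. Without replicate 1 of CD64 2 h that group's difference was −0.08. Without control replicate 2 the CD32 6 h difference was −0.07, with the opposite sign. The probe set shared by PSME2 and MIR7703 is not in these medians. Its log2 changes were 0.31 in CD64 6 h, −0.08 in CD64 2 h, 0.53 in CD32 6 h and 0.46 in CD32 2 h. Each was above the inducible median of its group, so the inducible medians would be higher with it. The medians are descriptions of lists and carry no test.

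Among the alpha ring genes, which form the gated outer rings of the core, 4 of 6 rose in CD64 6 h, 3 in CD64 2 h, 1 in CD32 6 h and 1 in CD32 2 h, and 0 fell. Of all probe sets 10.7% were called higher in CD64 6 h, 7.64% in CD64 2 h, 9.63% in CD32 6 h and 8.86% in CD32 2 h. Of the bright ones 46.1%, 35.7%, 41.7% and 34.4% were called in either direction, and their share called higher was not computed. With 6 genes, an excess over the bright probe sets is not shown in any group. PSMA3 had signals of 3912 and 4153 in CD64 6 h, 3615 and 3088 in CD64 2 h, 3000 and 3278 in CD32 6 h and 3470 and 2781 in CD32 2 h, against 1927 and 2254 in control. All 8 cross-linked arrays were above both controls. It rose 1.93-fold in CD64 6 h (log2 0.95 ± 0.13 SE, adjusted p = 0.000363), 1.60-fold in CD64 2 h (adjusted p = 0.00479), 1.50-fold in CD32 6 h (adjusted p = 0.00761) and 1.49-fold in CD32 2 h (adjusted p = 0.0110). The CD32 calls depended on single arrays: the 6 h call did not hold without control replicate 1 (adjusted p = 0.0695) or CD32 6 h replicate 2 (0.0623), and the 2 h call without control replicate 1 (0.0894) or CD32 2 h replicate 1 (0.114).

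PSMA4 was likewise above both controls on all 8 cross-linked arrays, with 4424 and 4219 in CD64 6 h, 3894 and 3728 in CD64 2 h, 3400 and 3597 in CD32 6 h and 3724 and 3759 in CD32 2 h, against 3121 and 3205 in control. It rose 1.37-fold in CD64 6 h (log2 0.45 ± 0.08 SE, adjusted p = 0.00213), a call kept whichever array was left out. A smaller call in CD64 2 h (log2 0.27, adjusted p = 0.0428) was lost under quantile normalization (0.14, adjusted p = 0.306) and in 9 of the 10 fits that left out 1 array, all but that without CD32 6 h replicate 2, at adjusted p of up to 0.183. PSMA7 differed by receptor: it had 949 and 951 in CD64 6 h and a mean of 947 ± 14.4 (SD, n = 2) in CD64 2 h, while 507 and 652 in CD32 6 h and 688 and 576 in CD32 2 h overlapped the 570 and 645 of control. It rose 1.57-fold in CD64 6 h (adjusted p = 0.00909) and 1.56-fold in CD64 2 h (adjusted p = 0.0132). Both calls were lost without control replicate 1 (adjusted p = 0.0629 at 6 h and 0.0853 at 2 h) and without either array of their own group (0.0556 and 0.0581 at 6 h, 0.0757 and 0.0598 at 2 h).

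PSMA5 completed the CD64 6 h calls of the alpha ring, at 1918 and 2152 in CD64 6 h against 1418 and 1596 in control (log2 0.43, adjusted p = 0.0284). Leaving out control replicate 1 (adjusted p = 0.163) or either CD64 6 h array (0.0539 and 0.190) ended that call, as did quantile normalization (0.0524). PSMA1 and PSMA2 were called in none of the 4 comparisons with control, and their log2 changes lay between −0.17 and 0.20.

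In the constitutive beta ring the calls were downward and lay in the CD32 groups. PSMB3, a non-catalytic beta subunit, had signals of 5591 and 5826 in CD64 6 h, 5912 and 6185 in CD64 2 h, 4028 and 4174 in CD32 6 h and 3967 and 4322 in CD32 2 h, against 6100 and 6264 in control. The 4 CD32 arrays lay below the other 6 arrays without overlap. PSMB3 fell 1.51-fold in CD32 6 h (log2 −0.59 ± 0.08 SE, adjusted p = 0.000564) and 1.49-fold in CD32 2 h (log2 −0.58, adjusted p = 0.000969), both kept whichever array was left out. Its log2 changes in CD64 6 h and CD64 2 h were −0.12 and −0.03. PSMB4, another non-catalytic beta subunit, had 4310 and 4648 in CD64 6 h, 5688 and 6146 in CD64 2 h, 4221 and 4473 in CD32 6 h and 4320 and 3789 in CD32 2 h, against 4810 and 5443 in control. Its CD64 2 h arrays were the highest, and the CD64 6 h and all CD32 arrays lay below both controls. PSMB4 was called lower in CD32 2 h (log2 −0.34, adjusted p = 0.0462), which was lost in 9 of the 10 fits that left out 1 array, all but that without control replicate 1, at adjusted p of up to 0.284. PSMB1 and PSMB2 were not called, with log2 changes between −0.05 and 0.16.

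Among the 19S ATPases, the ring that unfolds substrates, PSMC2 rose and PSMC6 fell. PSMC2 had signals of 5483 and 4836 in CD64 6 h, 4692 and 5493 in CD64 2 h, 4335 and 5235 in CD32 6 h and 4938 and 4324 in CD32 2 h, against 3774 and 3123 in control. All 8 cross-linked arrays were above both controls. It rose 1.50-fold in CD64 6 h (log2 0.58 ± 0.14 SE, adjusted p = 0.0101), 1.48-fold in CD64 2 h (0.0168) and 1.39-fold in CD32 6 h (0.0314), and was 0.43 higher on the log2 scale in CD32 2 h without a call. The 3 calls were each lost without control replicate 2 (adjusted p = 0.0905 in CD64 6 h, 0.114 in CD64 2 h and 0.180 in CD32 6 h). They were also lost without CD64 6 h replicate 1 (0.0872), CD64 2 h replicate 2 (0.121) and CD32 6 h replicate 2 (0.205), each for its own group. Under quantile normalization the CD64 2 h and CD32 6 h calls were lost (0.0608 and 0.0805).

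PSMC6 had signals of 1305 and 1351 in CD64 6 h, 1816 and 1680 in CD64 2 h, 811 and 1088 in CD32 6 h and 1039 and 871 in CD32 2 h, against 1566 and 1473 in control. As for PSMB3, the 4 CD32 arrays were below the other 6. PSMC6 fell 1.62-fold in CD32 6 h (log2 −0.69 ± 0.14 SE, adjusted p = 0.00530) and 1.60-fold in CD32 2 h (adjusted p = 0.00800). The 6 h call was kept whichever array was left out, and the 2 h call did not hold without control replicate 1 (adjusted p = 0.0566) or CD32 2 h replicate 2 (0.0802). PSMC4 had 935 and 843 in CD64 6 h, 770 and 795 in CD64 2 h, 1164 and 1118 in CD32 6 h and 831 and 843 in CD32 2 h, against 843 and 864 in control. The CD32 6 h pair was the highest and the CD64 2 h pair the lowest, both apart from all other arrays. PSMC4 was called in CD32 6 h, 1.34-fold above control (adjusted p = 0.0143), a call lost without control replicate 1 (0.0574) or CD32 6 h replicate 1 (0.0759). PSMC1 and PSMC3 were not called against control.

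PSMD12, a scaffold subunit of the lid of the regulatory particle, was the other member called higher in all 4 comparisons with control, as 2.91% of probe sets were. Its signals were 1414 and 1444 in CD64 6 h, 1467 and 1429 in CD64 2 h, 1327 and 1481 in CD32 6 h and 1103 and 1114 in CD32 2 h, against 723 and 782 in control. The pairs were tight, and all 8 cross-linked arrays were above both controls. PSMD12 rose 1.90-fold in CD64 6 h (log2 0.93 ± 0.10 SE, adjusted p = 6.99e-05), 1.93-fold in CD64 2 h (adjusted p = 0.000147), 1.86-fold in CD32 6 h (adjusted p = 8.56e-05) and 1.47-fold in CD32 2 h (adjusted p = 0.00275). All 4 calls were kept whichever array was left out. Together with PSMA3, PSMA4 and PSMC2 it makes 4 of 34 members whose cross-linked arrays were all above both controls, against 6.97% of probe sets. No member had all 8 below, as 8.64% of probe sets did. These shares, and that of 2.91% for calls in all 4 comparisons, were not computed for the bright probe sets. An excess among the members is therefore not shown.

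PSMD3, a further lid subunit, was called higher in CD32 6 h and lower in CD64 2 h. Its signals were 376 and 396 in CD64 6 h, 130 and 239 in CD64 2 h, 714 and 634 in CD32 6 h and 375 and 373 in CD32 2 h, against 305 and 342 in control. Both CD32 6 h arrays were the highest and both CD64 2 h arrays the lowest. It rose 2.09-fold in CD32 6 h (log2 1.06 ± 0.26 SE, adjusted p = 0.0135), a call lost without control replicate 1 (0.0779) or either CD32 6 h array (0.0951 and 0.0511). It was 1.83-fold lower in CD64 2 h (adjusted p = 0.0409), which was lost under quantile normalization (0.138), under cyclic loess (0.106) and in 9 of the 10 fits that left out 1 array, all but that without CD64 2 h replicate 2, at adjusted p of up to 0.239.

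PSMD1, a scaffold of the base that holds ubiquitin receptors, had signals of 481 and 405 in CD64 6 h, 299 and 310 in CD64 2 h, 462 and 504 in CD32 6 h and 506 and 539 in CD32 2 h, against 689 and 449 in control. The CD64 2 h pair lay below every other array. It was 1.83-fold lower in CD64 2 h (log2 −0.87 ± 0.20 SE, adjusted p = 0.0137), which was lost without control replicate 1 (0.0887) or either CD64 2 h array (0.0740 and 0.0561). PSMD11, a lid subunit, had 1332 and 1329 in CD64 6 h, 803 and 887 in CD64 2 h, 847 and 829 in CD32 6 h and 1238 and 1225 in CD32 2 h, against 814 and 1157 in control. Its cross-linked pairs fell into a high level, in CD64 6 h and CD32 2 h, and a low level, in CD64 2 h and CD32 6 h, while the controls spanned most of the gap. The CD64 6 h call (log2 0.46, adjusted p = 0.0485) was lost in 9 of the 10 fits that left out 1 array, all but that without control replicate 2, at adjusted p of up to 0.297, and under quantile normalization (0.0651). PSMD2, the other base scaffold, was called lower in CD32 6 h (log2 −0.39, adjusted p = 0.0356). It did not pass without control replicate 2 (0.169), CD32 2 h replicate 1 (0.0502), CD32 6 h replicate 1 (0.0883) or CD32 6 h replicate 2 (0.146). PSMD4, PSMD8 and PSMD14 were not called against control, and their log2 changes lay between −0.32 and 0.28.

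The assembly factors PSMD9 and PSMD10, chaperones that help build the base of the regulatory particle and leave it, were low in CD32 6 h. PSMD9 had signals of 704 and 708 in CD64 6 h, 995 and 735 in CD64 2 h, 398 and 424 in CD32 6 h and 709 and 695 in CD32 2 h, against 616 and 709 in control. PSMD10 had 908 and 872 in CD64 6 h, 1146 and 1250 in CD64 2 h, 541 and 625 in CD32 6 h and 872 and 877 in CD32 2 h, against 901 and 860 in control. For both genes the CD32 6 h pair was below all other arrays and the CD64 2 h pair above them. PSMD9 fell 1.61-fold in CD32 6 h (log2 −0.69 ± 0.15 SE, adjusted p = 0.00874), a call lost without control replicate 2 (0.0603) or CD32 6 h replicate 1 (0.0599). PSMD10 fell 1.52-fold in CD32 6 h (log2 −0.60 ± 0.11 SE, adjusted p = 0.00310), which was kept whichever array was left out. PSMD10 was also called higher in CD64 2 h (log2 0.44, adjusted p = 0.0209), which was lost without control replicate 1 (0.0554) or 2 (0.0772) and without CD64 2 h replicate 1 (0.0548) or 2 (0.135). PSMD5, the third of these factors on the array, was not called, with log2 changes between −0.10 and 0.37.

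PSMF1, which inhibits the core particle in vitro and competes with the activators, had signals of 897 and 832 in CD64 6 h, 613 and 642 in CD64 2 h, 785 and 802 in CD32 6 h and 1105 and 992 in CD32 2 h, against 1114 and 1036 in control. The CD64 2 h, CD32 6 h and CD64 6 h pairs were below both controls, in that order from the lowest, and the CD32 2 h pair overlapped them. PSMF1 fell 1.71-fold in CD64 2 h (log2 −0.78 ± 0.11 SE, adjusted p = 0.000832), kept whichever array was left out. It was 1.35-fold lower in CD32 6 h (adjusted p = 0.0156), a call lost without control replicate 1 (0.0803) or either CD32 6 h array (0.0718 and 0.0505). The log2 change in CD64 6 h was −0.31 and was not called. PSME3, a nuclear activator, had signals between 58.6 and 159 over the 10 arrays and was called in no comparison with control.

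**Figure D3:**
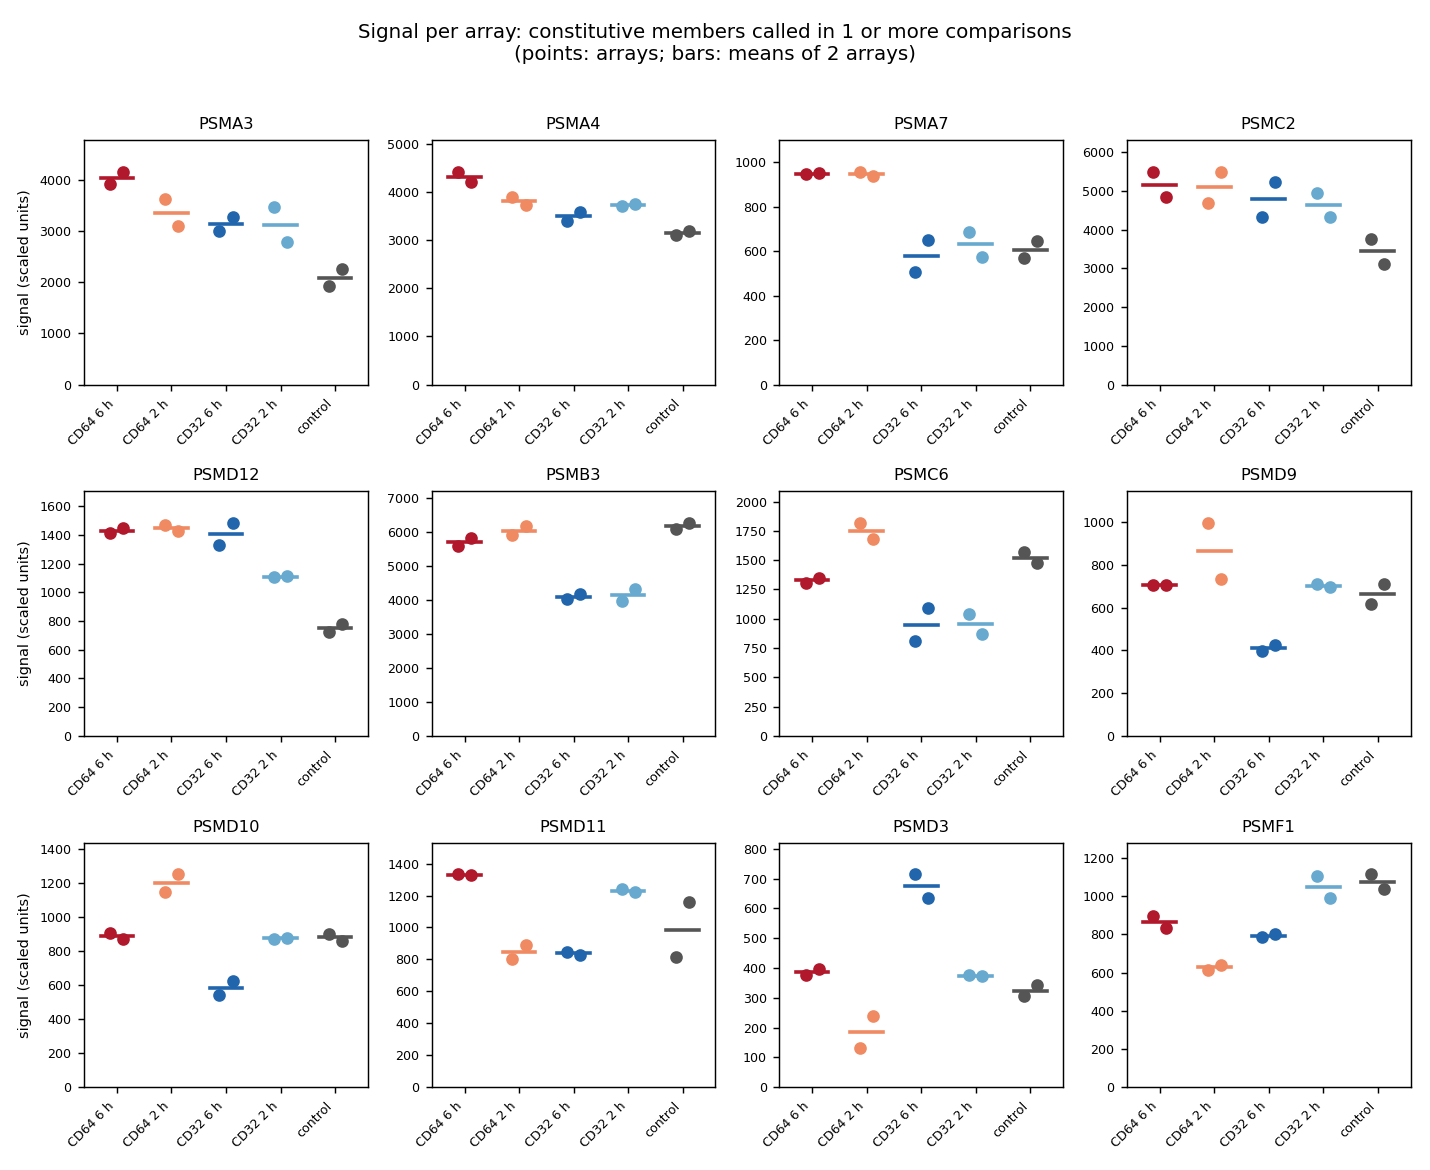
Signal per array, in scaled units on axes that start at 0, for 12 constitutive members called in 1 or more comparisons; points are arrays and bars are means of 2. PSMD12 is above control in every cross-linked array, PSMB3 and PSMC6 are low in the CD32 pairs, and PSMD9 and PSMD10 are low in CD32 6 h.

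CD64 and CD32 were then compared directly at the same time. At 6 h, 10 members were higher and 2 lower in CD64 than in CD32 (35.3% of members, against 17.6% of all probe sets, 9.81% higher and 7.8% lower, and 39.1% of the bright ones). Of all probe sets, 56.7% had pairs that did not overlap. The higher members were PSMA4, PSMA7, PSMB3, PSMC3, PSMC6, PSMD2, PSMD8, PSMD9, PSMD10 and PSMD11, and the lower ones PSMC4 and PSMD14. PSMD9 was 1.72-fold higher in CD64 6 h than in CD32 6 h (log2 0.78 ± 0.15 SE, adjusted p = 0.00521), PSMD10 1.53-fold (adjusted p = 0.00339) and PSMB3 1.39-fold (adjusted p = 0.00285), and these 3 calls were kept whichever array was left out. The other 9 were each lost without at least 1 of the 4 arrays compared, at adjusted p of 0.0506 to 0.266 in the fits that lost them. PSMA7 (log2 0.72, adjusted p = 0.00637) was lost without CD32 6 h replicate 1 alone (0.0552), and PSMD11 (log2 0.67, adjusted p = 0.00955) without any of the 4 arrays compared (0.0512 to 0.0600). PSMD14, a de-ubiquitinase of the lid, had 2857 and 2932 in CD64 6 h against 3767 and 3343 in CD32 6 h (log2 −0.29, adjusted p = 0.0472), and the call was lost under quantile normalization (0.126) and without every array but CD32 6 h replicate 2.

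At 2 h, 6 members were higher and 6 lower in CD64 than in CD32 (35.3% of members, against 16.3% of all probe sets, 6.86% higher and 9.43% lower, and 37.4% of the bright ones). Of all probe sets, 55.8% had pairs that did not overlap. PSMC6 was 1.84-fold higher in CD64 2 h (log2 0.88 ± 0.14 SE, adjusted p = 0.00186), PSMB3 1.46-fold higher (adjusted p = 0.00149), PSMF1 1.67-fold lower (adjusted p = 0.00121) and PSMB8 1.50-fold lower (log2 −0.58 ± 0.09 SE, adjusted p = 0.00164). These 4 calls were kept whichever array was left out. PSMB4 was 1.46-fold higher in CD64 2 h (log2 0.55, adjusted p = 0.00410), which was lost without CD32 2 h replicate 2 (0.0514). PSMA7, PSMD10 and PSMD12 were also called higher and PSMD1, PSMD3, PSMD4 and PSMD11 lower, and each of these 7 was lost without 3 or 4 of the 4 arrays compared, at adjusted p of 0.0644 to 0.167. PSMB8 was the sole inducible member called in either comparison of receptors. PSMA7, PSMB3, PSMC6 and PSMD10 were called higher in CD64 than in CD32 at both times. For PSMC6 the change at 6 h was 0.50 on the log2 scale (adjusted p = 0.0319). That call was lost without CD32 6 h replicate 1 (log2 0.29), either CD64 6 h array (0.52 and 0.47) or control replicate 2 (0.50). Quantile normalization also ended it (adjusted p = 0.0573). The probe set shared by PSME2 and MIR7703 was lower in CD64 2 h than in CD32 2 h (log2 −0.54, adjusted p = 0.00918).

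Between 2 h and 6 h the CD64 cells changed in 7 members, 5 higher and 2 lower at 6 h (20.6% of members, against 13.8% of all probe sets, 7.56% higher and 6.25% lower, and 31.9% of the bright ones). Of all probe sets, 52.8% had pairs that did not overlap. PSMB8 was 1.46-fold higher at CD64 6 h than at CD64 2 h (log2 0.55 ± 0.09 SE, adjusted p = 0.00268), and PSMC3, an ATPase with 1275 and 1195 at CD64 6 h against 786 and 702 at CD64 2 h, was 1.66-fold higher (log2 0.73 ± 0.13 SE, adjusted p = 0.00465). Both were kept whichever array was left out. Both were lost with only the groups compared (adjusted p = 0.0940 for PSMB8 and 0.0622 for PSMC3). PSMB8 was also lost in a fit without limma's variance trend (0.0528). PSMD3 (log2 1.13, adjusted p = 0.0139), PSMD11 (0.66, adjusted p = 0.0127) and PSMF1 (0.46, adjusted p = 0.0164) were higher, and PSMB4 (−0.40, adjusted p = 0.0233) and PSMD10 (−0.43, adjusted p = 0.0264) lower. Each of these 5 was lost without 3 or 4 of the 4 arrays compared, at adjusted p of 0.0549 to 0.172. Quantile normalization ended the calls of PSMB4 (log2 −0.22, adjusted p = 0.156), PSMD3 (0.0693) and PSMF1 (0.0915). In CD32 cells 1 member was higher and 2 lower at 6 h (8.82% of members, against 4.46% of all probe sets, 2.04% higher and 2.43% lower, and 11.2% of the bright ones): PSMC4 (log2 0.45, adjusted p = 0.0332), PSMD9 (−0.77, adjusted p = 0.0190) and PSMD10 (−0.59, adjusted p = 0.0154). All 3 were lost without 3 or 4 of the 4 arrays compared, at adjusted p of 0.0697 to 0.157, and PSMC4 also without CD64 6 h replicate 1 (0.0509) or 2 (0.0515). Of all probe sets, 48.4% had CD32 pairs that did not overlap. PSMD10 was lower at 6 h than at 2 h for both receptors.

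The test of receptor by time asked whether the change between 2 h and 6 h differed between receptors. It called 6 members, 5 with a positive difference, CD64 minus CD32, and 1 with a negative one (17.6% of members, against 11.5% of all probe sets, 6.72% upward and 4.75% downward, and 26.3% of the bright ones). PSMD11 was 0.66 higher at 6 h on the log2 scale in CD64 and −0.56 in CD32, a difference of 1.21 ± 0.21 SE (adjusted p = 0.00398). PSMF1 was 0.46 higher in CD64 and −0.40 in CD32 (difference 0.86 ± 0.15 SE, adjusted p = 0.00512). PSMB8 was 0.55 higher in CD64 and −0.13 in CD32 (difference 0.67 ± 0.13 SE, adjusted p = 0.00745). These 3 were kept whichever array was left out. In a fit without limma's variance trend the PSMB8 difference was lost (adjusted p = 0.0846), and those of PSMD11 and PSMF1 were kept. The CD32 changes of these 3 between 2 h and 6 h were not called. The differences for PSMC3 (0.88, adjusted p = 0.0135), PSMD8 (0.65, adjusted p = 0.0286) and PSMB4 (−0.50, adjusted p = 0.0455) were less stable. PSMC3 was lost without CD32 2 h replicate 2 (0.0550), CD64 2 h replicate 2 (0.0508) or CD64 6 h replicate 1 (0.0577). PSMD8 was lost without CD32 2 h replicate 1 (0.114), CD32 6 h replicate 2 (0.0983), either CD64 2 h array (0.0743 and 0.0745) or CD64 6 h replicate 2 (0.118). PSMB4 was lost without any of the 8 cross-linked arrays (0.0523 to 0.171) and under quantile normalization (log2 −0.25, adjusted p = 0.269).

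**Figure D4:**
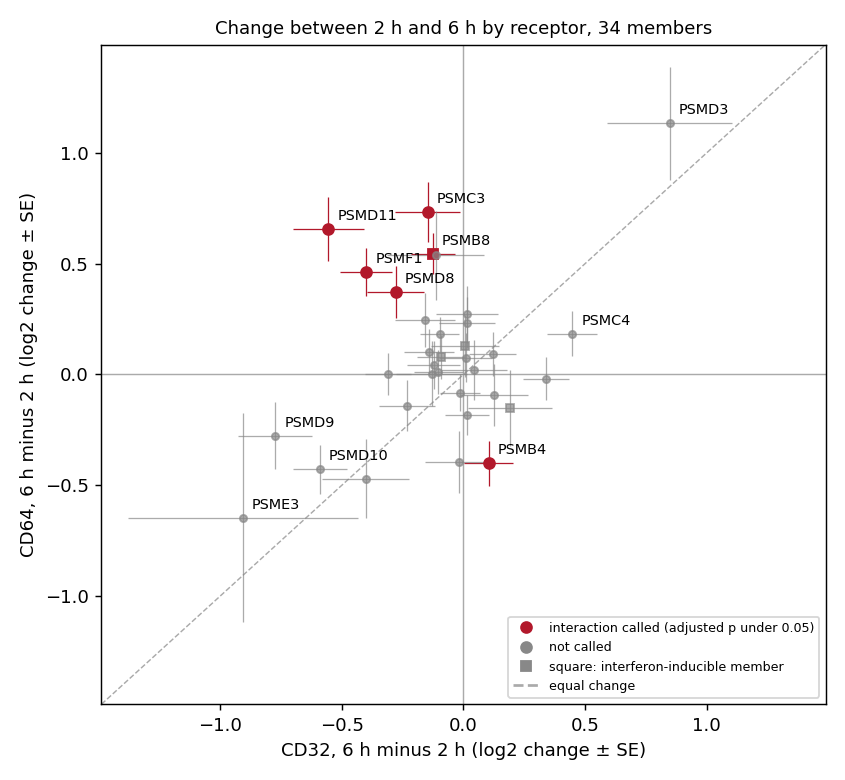
Log2 change from 2 h to 6 h in CD32 cells (x axis) and CD64 cells (y axis) for the 34 members, with SE bars; red points have a called difference between the receptors and squares are inducible members. PSMD11, PSMF1 and PSMB8 lie above 0 on the CD64 axis and below 0 on the CD32 axis, where their changes were not called.

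Against control, 20.6% of all probe sets were called in CD64 6 h, 15.9% in CD64 2 h, 20% in CD32 6 h and 15.5% in CD32 2 h. Of the bright ones 46.1%, 35.7%, 41.7% and 34.4% were called in the same groups. Counts near these shares are not results about a list. Genes of the same pathway were counted beside the shares, from lists chosen by role. Of their calls against control, those kept whichever array was left out were 8 of 15 in CD64 6 h, 6 of 7 in CD64 2 h, 7 of 14 in CD32 6 h and 5 of 8 in CD32 2 h, the probe set shared by PSME2 and MIR7703 included. Among 7 regulators of the inducible subunits on the array, 2 were higher and 2 lower in CD64 6 h, 1 and 2 in CD64 2 h, 2 and 1 in CD32 6 h, and 1 and 2 in CD32 2 h, with median log2 changes of 0.16, −0.19, 0.16 and 0.25. IRF1, a transcription factor that binds the interferon-stimulated element in immunoproteasome promoters, had signals of 339 and 341 in CD64 6 h, 353 and 456 in CD64 2 h, 728 and 797 in CD32 6 h and 410 and 354 in CD32 2 h, against 826 and 815 in control. The CD32 6 h arrays were just below control, and the other 6 were far below it. IRF1 fell by 1.27 on the log2 scale in CD64 6 h (adjusted p = 0.000228), by 1.03 in CD64 2 h (0.00145) and by 1.11 in CD32 2 h (0.000909), each kept whichever array was left out. IRF8, a myeloid interferon regulatory factor, fell in CD64 6 h (log2 −0.97), in CD32 6 h (−1.01) and in CD32 2 h (adjusted p = 0.00245), and IFNGR1, a chain of the interferon gamma receptor, was higher in all 4 groups, with log2 changes of 1.05, 0.85, 0.52 and 0.87. In CD32 6 h the IFNGR1 call did not hold without control replicate 2 (0.0602) or CD32 6 h replicate 2 (0.0835).

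For peptide transport and MHC class I, 0 of 9 genes were higher and 3 lower in CD64 6 h, 0 and 1 in CD64 2 h, 5 and 0 in CD32 6 h and 0 and 0 in CD32 2 h, with median log2 changes of −0.54, −0.20, 0.49 and −0.08. Under quantile normalization these counts were 0 and 1 in CD64 6 h and 2 and 0 in CD32 6 h, with medians of −0.01 and 0.23. The share of all probe sets was not computed under that normalization. B2M, the light chain of class I, had signals of 9867 and 9828 in CD64 6 h, 17407 and 20199 in CD64 2 h, 24066 and 23636 in CD32 6 h and 14495 and 15358 in CD32 2 h, against 17027 and 16229 in control. Its direction held but its size depended on the scaling: the log2 change in CD64 6 h was −0.76 (adjusted p = 0.000418) as deposited, −0.14 (0.445) under quantile normalization and −0.34 (0.0242) under cyclic loess. In CD32 6 h it was 0.52 (0.00477), 0.19 (0.257) and 0.36 (0.0191). The brightest signal on an array was 14536 to 15868 in CD64 6 h and 36978 to 37995 in CD32 6 h, against 27987 to 28036 in control. TAPBP, which bridges class I to the peptide transporter, was called lower in CD64 2 h (−0.89, adjusted p = 0.00429) and higher in CD32 6 h (0.85, adjusted p = 0.00401). The second call was lost without CD32 6 h replicate 1 (0.0509). TAP2, a subunit of that transporter, had signals between 116 and 407 and no call against control. TAP1 was not analysed here.

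Of 4 assembly chaperones and small subunits on the array, 2 were higher and 1 lower in CD64 6 h, 0 and 0 in CD64 2 h, 1 and 0 in CD32 6 h and 1 and 1 in CD32 2 h, with median log2 changes of 0.41, 0.34, 0.27 and 0.16. ADRM1, a ubiquitin receptor of the base, had signals of 872 and 1129 in CD64 6 h, 829 and 1016 in CD64 2 h, 1412 and 1496 in CD32 6 h and 1258 and 1114 in CD32 2 h, against 670 and 683 in control. All 8 cross-linked arrays were above control, and ADRM1 rose by 1.10 on the log2 scale in CD32 6 h (adjusted p = 0.000319) and by 0.81 in CD32 2 h (0.00331), both kept whichever array was left out. PSMG2, a chaperone of alpha ring assembly, fell by 0.83 in CD64 6 h (adjusted p = 0.000668).

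Of 10 ubiquitin and shuttling genes, 2 were higher and 3 lower in CD64 6 h, 2 and 1 in CD64 2 h, 2 and 2 in CD32 6 h and 1 and 1 in CD32 2 h, with median log2 changes of −0.08, −0.01, 0.04 and −0.01. UBQLN2, a shuttle between ubiquitinated proteins and the proteasome, had signals of 155 and 202 in CD64 6 h, 547 and 445 in CD64 2 h, 123 and 114 in CD32 6 h and 147 and 141 in CD32 2 h, against 679 and 564 in control. It fell by 1.80 on the log2 scale in CD64 6 h, by 2.39 in CD32 6 h and by 2.10 in CD32 2 h (adjusted p = 0.000384, 6.24e-05 and 0.000221), larger changes than those of the 34 members against control. UBA1, the ubiquitin-activating enzyme, fell by 1.09 in CD64 6 h and by 0.93 in CD64 2 h and rose by 0.80 in CD32 6 h (adjusted p = 0.000294, 0.00133 and 0.00234). NFE2L1, a transcription factor that drives proteasome subunit genes through the antioxidant response element, had 594 and 806 in CD64 6 h, 400 and 476 in CD64 2 h, 525 and 585 in CD32 6 h and 708 and 785 in CD32 2 h, against 451 and 381 in control. It was called higher in CD64 6 h (log2 0.74, adjusted p = 0.0121) and CD32 2 h (0.85, adjusted p = 0.00800). The first did not pass without control replicate 2 (0.0825) or CD64 6 h replicate 2 (0.129), and the second without control replicate 2 (0.0608) or CD32 2 h replicate 2 (0.0706). POMP, the assembly chaperone of the core, was not analysed here.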

How the data were processed

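The authors deposited a table of linear intensity for 8793 probe sets, 47 of them controls, already scaled: the trimmed mean of each array lay between 500.5 and 500.6. The sources used here do not give the software. Symbols came from the platform annotation (7840 probe sets with 1, 388 with several, 518 with none). Samples were grouped by title, also for a CD32 2 h array with a deviating source name.

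From these values, a floor of 37.5 (percentile 25 over the table) replaced lower signals, and log2 was taken. The 7708 probe sets over the floor on 2 or more arrays were fitted with limma 3.58.1 in R 4.3.3, with lmFit on 1 term per group and eBayes with a variance trend (5 residual and 5.65 prior degrees of freedom). Tests were two-sided and adjusted over all probe sets by the method of Benjamini and Hochberg, and a call is an adjusted p under 0.05. The fit was tested on simulated data. With 2 arrays per group, the number of arrays limits the precision, and an exact permutation test of 2 against 2 could not go below 0.333.

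Every member may be named, with values per array for the inducible members, their counterparts and the 3 highest and 3 lowest called members of each comparison; in the pathway lists, fixed genes or up to 3 called genes with the largest change. The members and lists were chosen with earlier results of these data known. The plan counted 5 inducible subunits. The rule left 4, because the PSME2 probe set has 2 symbols. Adding that probe set, and the background of probe sets with a mean signal of at least 400, were chosen after seeing the data. The alternatives were quantile and cyclic loess normalization, no floor with log2 of the signal plus 16, no filter, no variance trend, only the groups compared, the probe set with the lowest mean, PSMB5 and PSMB7 alone as constitutive genes, and leaving out each array. Promoter windows came from RefSeq tables of GRCh38.p14, which held 30 of the 34 members.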

Additional observations from a re-analysis of the deposited data

Results flagged for a closer look

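The change between 2 h and 6 h differed between CD64 and CD32 for 6 members in the limma test of receptor by time. That was 17.6% of members, against 11.5% of all probe sets and 26.3% of those with a mean signal of at least 400. The difference on the log2 scale, CD64 minus CD32, was 1.21 for PSMD11 (adjusted p = 0.00398), 0.88 for PSMC3 (0.0135), 0.86 for PSMF1 (0.00512), 0.67 for PSMB8 (0.00745), 0.65 for PSMD8 (0.0286) and −0.50 for PSMB4 (0.0455). For PSMD11, PSMF1, PSMB8, PSMC3 and PSMD8 the log2 change from 2 h to 6 h was positive in CD64 and negative in CD32. For PSMB4 the reverse held. None of these changes was called in CD32, and that of PSMD8 was not called in CD64. The differences for PSMC3, PSMD8 and PSMB4 depended on single arrays, as given above. The spike-in level and the actin ratio also differed between these groups, and their part in the result was not tested.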

How the results depend on the processing

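The 73 member calls over the 9 comparisons did not change sign under any alternative, but many lost the threshold: 58 remained under quantile normalization, 62 under cyclic loess, 71 with no floor, 49 with no filter, 26 with no variance trend, and 51 to 62 when 1 array was left out. With only the groups compared, which leaves few degrees of freedom, 10 of 67 remained. No call depended on the choice of probe set, since each member had 1. Most of the 73 calls were lost in 1 or more of the fits that left out 1 array, and 8 were kept in every alternative run for them. These 8 include the receptor by time calls of PSMD11 and PSMF1, which were not run with only the groups compared.

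With no variance trend the members called were 9 over all groups together (19 as reported), 4 in CD64 6 h, 3 in CD64 2 h, 6 in CD32 6 h and 2 in CD32 2 h against control, 3 at 6 h and 5 at 2 h for CD64 against CD32, 1 between the times in CD64, 0 in CD32 and 2 for receptor by time. With only the groups compared they were 4, 0, 3 and 0 against control in the same order of groups, 4 at 6 h and 0 at 2 h between receptors, and 0 between times for either receptor. With no filter, 7 were called for CD64 against CD32 at 2 h and 4 between times in CD64. Cyclic loess gave 11 between times in CD64, and no floor gave 5 in CD32. Leaving out 1 array gave 15 to 20 over all groups, 3 to 8 in CD64 6 h, 5 to 9 in CD64 2 h, 6 to 11 in CD32 6 h, 3 to 6 in CD32 2 h, 4 to 12 between receptors at 6 h and at 2 h, 2 to 8 between times in CD64, 0 to 4 in CD32 and 3 to 6 for receptor by time. The share of all probe sets called was not computed under these alternatives, so the counts have no background beside them. Leaving out an array and using only the groups compared leave fewer arrays, and the fit with no filter holds more probe sets. Why the counts differed was not tested.

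The difference of medians, inducible minus constitutive members, was −0.0904 in CD64 2 h when set against PSMB5 and PSMB7 alone. Under cyclic loess it was −0.0429 between times in CD32 and 0.102 for receptor by time. Leaving out 1 array, it ranged over −0.0699 to 0.0583 in CD32 6 h, −0.286 to −0.0763 in CD64 2 h, −0.101 to 0.133 between receptors at 2 h, −0.0574 to 0.153 between times in CD64 and −0.132 to 0.129 for receptor by time. No paired analysis was possible because the titles give no replicate number that ties arrays of different groups: they mark 1 array of each cross-linked group as a duplicate, and the replicate numbers in the text only name arrays.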

Other observations

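The 8 named genes whose signal was most like the centred mean of the inducible members over the 10 arrays were SRR, GTF3C4, NUP62, CYP2A7, ALDH1B1, TIAM2, SLC7A9 and CAPN5, with Pearson r between 0.821 and 0.871. This is a description of a mean that moved little, picked from all named probe sets, and it carries no p.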
